A study of Homo sapiens with 6 samples.

Results

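The 32 genes described here encode proteins of the chemical synapse: vesicle membrane and vesicle-associated proteins (10 genes), SNARE proteins and complexins (6), active zone proteins of the presynaptic terminal (7) and scaffold proteins of the postsynaptic side (9). They were taken by gene symbol from a list of 32, and all 32 are present among the 16832 symbols of the deposited tables. RNA was sequenced from U251, an established human glioma cell line with a wild-type label, in 3 libraries of cells that spent 18 days with SLCDS, a small-molecule mixture whose members are not named one by one in the labels, and in 3 libraries of control cells that received PBS and no SLCDS. All libraries come from this single line, how long control cells were cultured is not stated, and the labels do not say whether the replicates were separate cultures, so p-values measure the spread between these libraries, which may be technical. Treated cells are termed neuronal-like in the title of the series, and the comparison asks how far genes of the synapse differ between SLCDS and control cells.

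At a synapse, neurotransmitter is stored in vesicles that are docked at the active zone by large scaffold proteins. A calcium rise, sensed by synaptotagmin, lets SNARE proteins on the vesicle and on the plasma membrane zip together and fuse the membranes. On the receiving side, scaffold proteins hold receptors opposite the release site. Astrocytes and glioma cells also secrete by exocytosis and share part of this machinery, whereas synapsins, complexins and the largest active zone proteins are mostly neuronal.

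The libraries held between 15588126 and 16450906 fragments on listed genes. These numbers were read from the deposited FPKM (fragment numbers scaled to gene length and library depth): within a library the values of a gene step by what 1 fragment is worth, and for 16824 of 16832 symbols the 6 values were whole multiples of 1 step within 0.001. The numbers are the smallest whole set, since a factor common to all libraries cannot be seen. Control replicate 3 stood apart, with Pearson correlations across genes of 0.970 to 0.977 to the other 5 libraries, against 0.984 to 0.997 among those 5. Genes are not independent replicates, so these values only describe the libraries. Results that rest on control replicate 3 are given with and without it. Of the marker lists, the glioma and astrocyte list summed to between 2514 and 2602 FPKM in SLCDS and between 2665 and 3055 FPKM in control. VIM was its largest part, and GFAP and GJA1 fell among 8 tested genes. The neuron list summed to between 815 and 859 FPKM in SLCDS and between 660 and 889 FPKM in control. Most of that was UCHL1 (559 FPKM in SLCDS and 577 FPKM in control), and GAP43 and SCG2 rose among 6 tested genes. In the test over all 6 libraries, 4.28% of all tested genes were called higher and 1.82% lower. TUBB3 averaged 29.5 FPKM in SLCDS and 39.4 FPKM in control, and MAP2 14.7 FPKM in SLCDS and 18.5 FPKM in control, and neither passed (limma, adjusted p = 0.0671 and 0.458). Without control replicate 3, 4 of the 6 neuron genes were called higher and 2 lower, and 2 of the 8 glioma and astrocyte genes higher and 5 lower, where 16.1% and 11.7% of all tested genes were called. The neuronal nuclear marker RBFOX3 averaged 0.0110 FPKM in SLCDS and 0.00687 FPKM in control. Endothelial markers summed to between 4.96 and 5.88 FPKM in SLCDS and between 2.12 and 3.00 FPKM in control. Most of it was CDH5, the only tested gene of that list, which rose, while PECAM1 averaged 0.0781 FPKM in SLCDS and 0.0666 FPKM in control. Each of the 16832 listed symbols had a value above 0 in some library, so no listed marker could be at 0 in all of them. Of 15 neuron markers looked for 13 were listed, and of 8 microglial markers 7. Microglial markers summed to between 3.88 and 5.10 FPKM in SLCDS and between 3.06 and 3.51 FPKM in control, most of it CD68, the only tested gene of that list. Fibroblast and pericyte markers summed to between 372 and 380 FPKM in SLCDS and between 367 and 399 FPKM in control. Nearly all of this was COL1A2, which averaged 365 FPKM in SLCDS and 374 FPKM in control, while COL1A1 averaged 0.592 and 1.00 FPKM. ACTA2 and PDGFRB rose among 4 tested genes, PDGFRB having passed the filter only through SLCDS. Neuroendocrine markers summed to between 9.14 and 9.69 FPKM in SLCDS and between 5.62 and 5.97 FPKM in control, with CHGB rising among 2 tested genes. The part of any other cell type in the results below was not tested, and in bulk RNA fewer cells of a type and less RNA per cell cannot be told apart.

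Of the 32 synaptic genes, 11 stayed below 1 FPKM in every library: SYN1, SYN2, CPLX1, CPLX2, BSN, RIMS1, RIMS2, UNC13A, DLG2, SHANK1 and SHANK2. For comparison, 29.8% of all listed symbols did so. By role, below 1 FPKM throughout were 4 of 7 active zone genes, 3 of 9 postsynaptic scaffold genes, 2 of 6 SNARE and complexin genes and 2 of 10 vesicle genes. Each role holds few, chosen genes, and a difference between roles was not tested. The piccolo gene PCLO crossed the limit in 2 SLCDS libraries only. Some values lay close to it: the highest of SYN1 was 0.998 FPKM in SLCDS replicate 3, and the highest of CPLX1 was 0.971 FPKM in SLCDS replicate 1. Most abundant were SYT11, VAMP2 and SV2A, averaging 120.1, 86.9 and 48.5 FPKM in SLCDS, against 135, 80.4 and 44.2 FPKM in control.

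**Figure D1:**
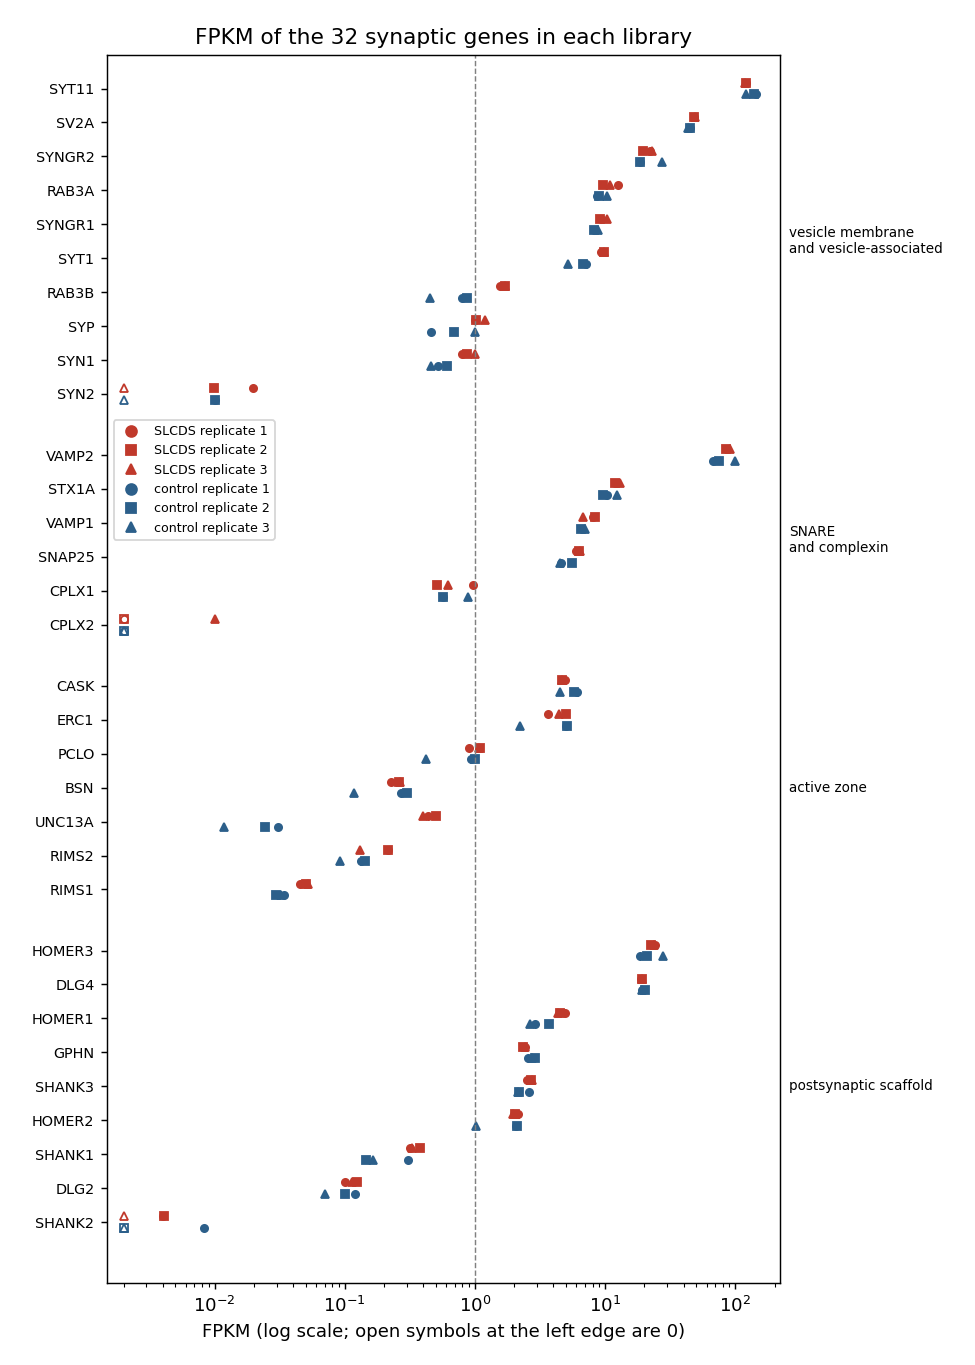
FPKM of each of the 32 genes (rows, grouped by role and ordered by mean level) in the 3 SLCDS and 3 control libraries, on a log axis; the dashed line marks 1 FPKM and each symbol is 1 library. The 11 genes whose symbols all lie left of the line include UNC13A, whose SLCDS libraries (0.402 to 0.502 FPKM) lie far to the right of its control libraries (0.0118 to 0.0307 FPKM).

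In the comparison of SLCDS with control, 2 of 20 tested synaptic genes rose and none fell. Of all tested genes 4.28% were called higher and 1.82% lower. RAB3B, a small GTPase of secretory vesicles, was 2.35 times as high in SLCDS by mean FPKM, and SYT1, the calcium sensor of fast release, 1.52 times. RAB3B was tested only through its SLCDS libraries, since no control library reached 1 FPKM. By ratio of mean FPKM the largest difference of any of the 32 with at least 1 fragment in every library was that of UNC13A, the vesicle priming factor Munc13-1. It was 19.9 times as high in SLCDS, at a level under 1 FPKM that left it out of the test over all libraries. The scaffold gene HOMER1 was 1.5 times as high and lay just short of the threshold.

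The test was limma on log2(FPKM + 1), over 11506 genes with at least 1 FPKM in 3 or more libraries, called at a Benjamini-Hochberg adjusted p under 0.05. Of the 32 genes 20 entered it. RAB3B and SYP did so only through their SLCDS libraries, so the filter favoured a higher value in SLCDS for these, and the count of 2 is a description. Over all tested genes 4.28% were called higher and 1.82% lower. The median difference of log2(FPKM + 1) over all 32 genes, with no filter, was 0.13, against 0.01 over all listed symbols. With 1 SLCDS library left out, whichever it was, no synaptic gene passed, and RAB3B and SYP no longer met the filter. Calls over all tested genes dropped as well, from 492 to between 140 and 153 higher and from 209 to between 56 and 58 lower. The count of 0 is therefore no result about the synaptic genes. Without control replicate 3, 12 of 20 were higher and 2 lower, where 16.1% and 11.7% of all tested genes were called.

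**Figure D2:**
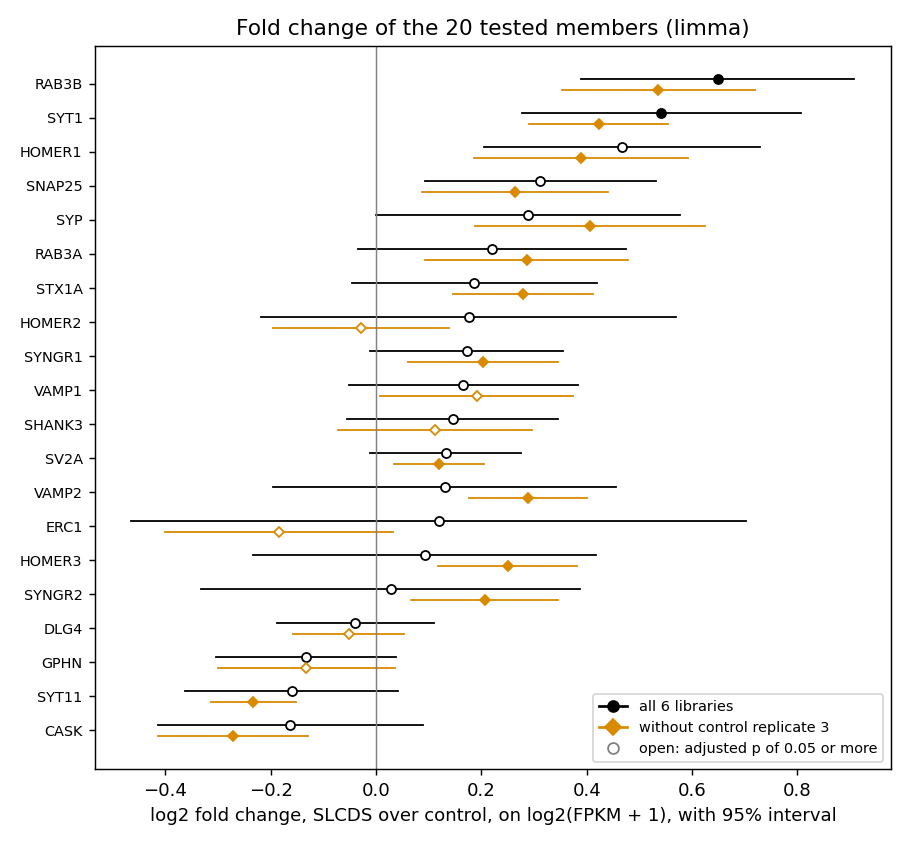
Log2 fold change of the 20 tested genes, SLCDS over control, on the log2(FPKM + 1) scale with 95% intervals, from all 6 libraries (black circles) and without control replicate 3 (orange diamonds); filled symbols passed at an adjusted p under 0.05. RAB3B (0.65) and SYT1 (0.54) are the only filled black symbols, and the intervals are widest for ERC1 (-0.46 to 0.70).

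The synaptotagmins are vesicle membrane proteins of which SYT1 binds calcium, whereas SYT11 does not act as a calcium sensor. SYT1 stood at 9.31, 9.72 and 9.87 FPKM in SLCDS, against 7.17, 6.70 and 5.20 FPKM in control. All SLCDS values lay above all control values, and the lowest was that of control replicate 3. The fold change on the log2(FPKM + 1) scale was 0.54 (SE 0.11; limma, adjusted p = 0.0353), and without control replicate 3 it was 0.42 (limma, adjusted p = 0.000569). Over 21 other settings the adjusted p of SYT1 ran up to 0.181, and the gene passed in 13 of them. SYT11, the most abundant of the 32, stood at 121, 120 and 119 FPKM in SLCDS, against at 143, 139 and 121 FPKM in control. The groups did not overlap, by a narrow margin at control replicate 3. SYT11 did not pass over all libraries (log2 fold change -0.16, limma, adjusted p = 0.386) and fell without control replicate 3 (-0.23, limma, adjusted p = 0.00108).

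RAB3A and RAB3B are the vesicle GTPases of the list. RAB3B stood at 1.56, 1.70 and 1.72 FPKM in SLCDS, against 0.789, 0.875 and 0.449 FPKM in control. The lowest SLCDS value lay well above the highest control value, and these values rest on 344, 370 and 387 fragments in SLCDS and 169, 187 and 100 in control. Its log2 fold change was 0.65 (SE 0.11; limma, adjusted p = 0.0163), the adjusted p without control replicate 3 was 0.000994, and it passed in all 17 other settings in which it was tested. Under the filter of 1 FPKM in 3 or more libraries RAB3B entered only through SLCDS. It was not tested with 1 SLCDS library left out or with a mean FPKM of at least 5. RAB3A, the main RAB3 of synaptic vesicles, stood at 12.5, 9.70 and 10.9 FPKM in SLCDS, against at 8.64, 8.99 and 10.3 FPKM in control. Its groups overlapped through control replicate 3, it did not pass (log2 fold change 0.22, limma, adjusted p = 0.345), and it rose without that library (0.29, limma, adjusted p = 0.0340).

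SYP, the vesicle protein synaptophysin, had 1.01, 1.02 and 1.20 FPKM in SLCDS and 0.456, 0.686 and 0.999 FPKM in control, or 41, 41 and 50 fragments against 18, 27 and 41. Its values lay at the limit of 1 FPKM, and the nearest values of the groups, in SLCDS replicate 1 and control replicate 3, both stood for 41 fragments. SYP did not pass over all libraries (log2 fold change 0.29, limma, adjusted p = 0.270) and rose without control replicate 3 (0.41, limma, adjusted p = 0.0124). It entered both fits only through its SLCDS libraries, so the filter favoured a higher value in SLCDS. The vesicle glycoprotein gene SV2A had 48.3, 48.1 and 49.1 FPKM in SLCDS and 44.4, 44.7 and 43.4 FPKM in control. These groups did not overlap, yet the difference was small (log2 fold change 0.13; 95% interval -0.01 to 0.28; limma, adjusted p = 0.312). SV2A rose by 0.12 without control replicate 3 (limma, adjusted p = 0.0424).

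The synaptogyrins SYNGR1 and SYNGR2 are 4-pass vesicle proteins, SYNGR1 of neurons and SYNGR2 of other cells. SYNGR1 had 9.27, 9.12 and 10.3 FPKM in SLCDS and 8.18, 8.14 and 8.78 FPKM in control, with no overlap and no call (log2 fold change 0.17, limma, adjusted p = 0.303). SYNGR2 had 22.1, 19.6 and 22.8 FPKM in SLCDS and 18.4, 18.5 and 27.2 FPKM in control. Control replicate 3 was its highest library and the other 2 controls its lowest. Without control replicate 3 both synaptogyrins rose, by 0.20 for SYNGR1 (limma, adjusted p = 0.0395) and 0.21 for SYNGR2 (limma, adjusted p = 0.0350).

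Among the SNARE genes, which encode the proteins that pull vesicle and plasma membrane together, SNAP25 had 5.95, 6.34 and 6.44 FPKM in SLCDS and 4.56, 5.53 and 4.46 FPKM in control. The groups did not overlap, but SNAP25 did not pass (log2 fold change 0.31; 95% interval 0.09 to 0.53; limma, adjusted p = 0.119). VAMP2, the vesicle SNARE synaptobrevin 2, had 85.4, 84.9 and 90.6 FPKM in SLCDS and 67.6, 74.4 and 99.1 FPKM in control. Control replicate 3 exceeded every SLCDS library, and the other 2 controls lay below them all. STX1A, the plasma membrane syntaxin, had 12, 11.9 and 13 FPKM in SLCDS and 10.2, 9.70 and 12.3 FPKM in control, where control replicate 3 lay within the SLCDS range and the other 2 controls below it. Neither passed (limma, adjusted p = 0.689 for VAMP2 and 0.382 for STX1A). Without control replicate 3, SNAP25 (log2 fold change 0.26, limma, adjusted p = 0.0324), VAMP2 (0.29, adjusted p = 0.00214) and STX1A (0.28, adjusted p = 0.00658) all rose. VAMP1, synaptobrevin 1, had 8.05, 8.29 and 6.72 FPKM in SLCDS and 6.67, 6.5 and 6.99 FPKM in control, overlapping through SLCDS replicate 3 and control replicate 3, and passed neither with nor without control replicate 3 (limma, adjusted p = 0.410 and 0.114).

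The complexins clamp and promote SNARE fusion. CPLX1 had between 0.507 and 0.971 FPKM in SLCDS and between 0.569 and 0.885 FPKM in control, from 19 to 37 fragments a library, and its groups overlapped fully. CPLX2 was at 0 in 5 of 6 libraries, with 1 fragment in SLCDS replicate 3. A count of 0 allows up to 3 fragments, which for CPLX2 is 0.0304 to 0.0317 FPKM, for counting error only.

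UNC13A encodes a protein that opens syntaxin so that SNARE complexes can form. It had 0.434, 0.502 and 0.402 FPKM in SLCDS, against 0.0307, 0.0246 and 0.0118 FPKM in control. These values stood for 73, 83 and 69 fragments in SLCDS, against 5, 4 and 2 in control, so that the lowest SLCDS library held far more than the highest control library. Set against depth, the summed 225 fragments of SLCDS and 11 of control gave a ratio with an exact 95% interval of 11 to 40.7, for counting error only. With no filter on low values UNC13A rose (log2 fold change 0.50 on the log2(FPKM + 1) scale, limma, adjusted p = 0.00114), where 3.71% of 16832 genes were called higher and 1.24% lower. On the fragments themselves, tested with voom and limma in a fit added once the values were known, its log2 fold change was 4.21 (SE 0.36, adjusted p = 0.00104), where 4.91% of 13132 genes were called higher and 1.91% lower. The same fit without control replicate 3 gave 3.86 (voom and limma, adjusted p = 5.42e-07), where 15.5% of genes were called higher and 14.4% lower. No listed gene overlaps UNC13A in RefSeq. Its neighbours on chromosome 19 are COLGALT1, at 44.0 ± 1.55 FPKM in SLCDS, against 37.4 ± 1.99 FPKM in control (SD, n = 3 each), and MAP1S, at 16.8 ± 0.976 and 17.1 ± 3.20 FPKM, and neither passed (limma, adjusted p = 0.130 and 0.977).

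Synapsins tether vesicles to each other and to actin. SYN1 had 0.796, 0.865 and 0.998 FPKM in SLCDS and 0.516, 0.613 and 0.459 FPKM in control, or 43, 46 and 55 fragments against 27, 32 and 25. The groups did not overlap. SYN1 rose with no filter on low values (log2 fold change 0.30, limma, adjusted p = 0.0452) and did not pass on fragments (0.72, voom and limma, adjusted p = 0.0925). The 2 fits differ in scale, filter and weights. SYT1 was not called in the fit with no filter (limma, adjusted p = 0.0543), where RAB3B, SYN1 and UNC13A were. SYN1 overlaps TIMP1 and ARAF in RefSeq. TIMP1 was far more abundant, at 165 ± 3.24 FPKM in SLCDS, against 155 ± 47.5 FPKM in control (SD, n = 3 each), and ARAF stood at 16.1 ± 0.790 and 17.1 ± 1.98 FPKM. Whether fragments were assigned by strand is not given in the sources used here, so a share of fragments from these genes in SYN1 was not tested. SYN2 had at most 2 fragments in any library and none in SLCDS replicate 3 and control replicate 3.

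**Figure D3:**
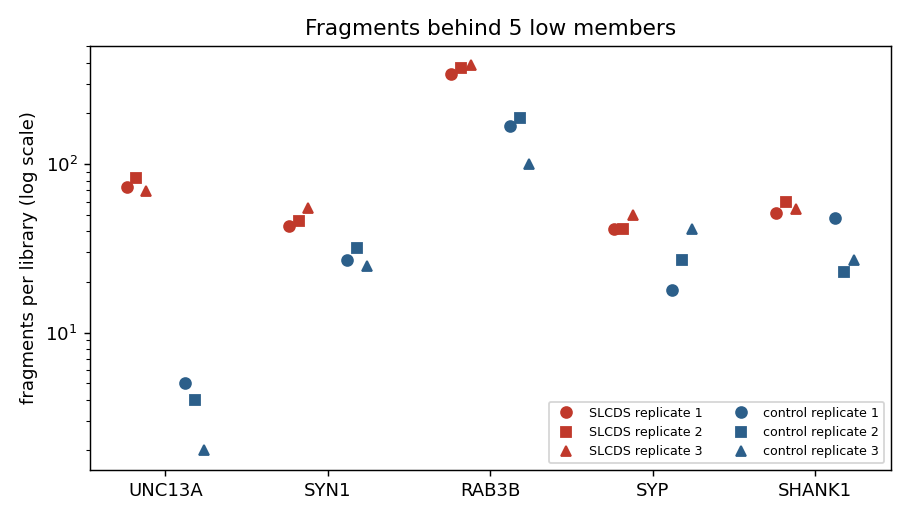
Fragments per library behind UNC13A, SYN1, RAB3B, SYP and SHANK1, on a log axis, with SLCDS left of control for each gene and 1 symbol per library. UNC13A holds 69 to 83 fragments in SLCDS and 2 to 5 in control, while SYP has 41 fragments in SLCDS replicates 1 and 2 and in control replicate 3.

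UNC13A and SYN1 are shown by sequence because they were the 2 genes below 1 FPKM throughout that were called with no filter on low values and the only members among the matched genes with both parts of the RE1 motif in their promoter windows. RefSeq promoters (GRCh38.p14, 250 bases before to 50 after each start) matched 27 of the 32 genes by symbol. Promoters of CPLX1, RIMS2, SHANK1, SHANK2 and SNAP25 were not analysed here. RE1 is the sequence bound by REST, a repressor that keeps many neuronal genes silent outside neurons. It was searched on both strands in a left part, TTCAGCACC, and a right part, which is the second run of capitals in the SYN1 site below with any base in place of its T. The whole motif is both parts with any 2 bases between them. Of 35116 promoter windows 3 held the whole motif (0.00854%), among them that of SYN1. UNC13A holds both parts but not the whole motif. A search for the 2 parts in their proper order with a gap of 0 to 20 bases was added after both had been seen in UNC13A, so its count is no independent measure of rarity. They were found in 5 windows (0.0142%), among them those of SYN1, with a gap of 2 bases, and UNC13A, with a gap of 8. The site of SYN1 lies on the minus strand at chrX:47620070-47620090, upstream of the start. That of UNC13A lies at chr19:17688340-17688366 and spans the start, with 12 bases before and 15 after it. UNC13A is also read from the minus strand, and there the motif reads on the opposite, plus strand, so its parts appear as their reverse complements. Both sites are printed 5′ to 3′ along the gene, on the minus strand, with the parts in capitals.
UNC13A site: GGCGCTGTCCgcgcccccGGTGCTGAA
SYN1 site: TTCAGCACCgcGGACAGTGCC

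The 250 bases before each start follow, with the same parts in capitals. They are on the minus strand, at chr19:17688355-17688604 for UNC13A and chrX:47619858-47620107 for SYN1, and the UNC13A stretch ends inside its site.
UNC13A promoter: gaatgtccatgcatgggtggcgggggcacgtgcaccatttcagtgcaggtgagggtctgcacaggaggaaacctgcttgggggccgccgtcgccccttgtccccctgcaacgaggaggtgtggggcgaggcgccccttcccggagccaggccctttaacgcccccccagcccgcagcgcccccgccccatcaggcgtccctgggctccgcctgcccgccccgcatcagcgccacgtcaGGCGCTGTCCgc
SYN1 promoter: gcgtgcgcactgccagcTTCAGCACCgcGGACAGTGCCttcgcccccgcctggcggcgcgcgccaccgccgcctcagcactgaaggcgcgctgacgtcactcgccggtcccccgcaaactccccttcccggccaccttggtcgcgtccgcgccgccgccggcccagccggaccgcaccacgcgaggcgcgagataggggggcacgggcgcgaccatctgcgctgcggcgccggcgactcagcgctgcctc

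The promoters of RAB3B and SYT1, the 2 genes that rose over all libraries, hold neither RE1 part. They are shown with the GC box GGGCGG, the element bound by SP1, in capitals on either strand. The GC box was present in 27 of the 48 windows of the 27 matched genes (56.2%) and in 45.0% of all windows. RAB3B had 3 matches in the bases shown and SYT1 had 1. RAB3B lies on the minus strand at chr1:51990701-51990950 and SYT1 on the plus strand at chr12:78864524-78864773. The cAMP element TGACGTCA was found in DLG4 and SYN1 (1.85% of all windows) and a TATAAA box in DLG2 (11.5%). These matches describe the letters in the windows and show no binding.
RAB3B promoter: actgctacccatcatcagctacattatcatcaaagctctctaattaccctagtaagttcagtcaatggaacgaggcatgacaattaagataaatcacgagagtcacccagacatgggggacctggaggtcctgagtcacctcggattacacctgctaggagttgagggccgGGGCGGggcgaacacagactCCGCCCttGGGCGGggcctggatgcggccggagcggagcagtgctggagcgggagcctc
SYT1 promoter: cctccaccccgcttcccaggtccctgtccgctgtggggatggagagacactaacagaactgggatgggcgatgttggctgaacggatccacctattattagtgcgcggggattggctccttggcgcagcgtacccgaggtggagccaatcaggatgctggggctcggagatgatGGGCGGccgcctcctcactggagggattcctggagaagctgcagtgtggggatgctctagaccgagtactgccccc

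Of the other active zone genes CASK and ERC1 were tested. CASK, a kinase-like scaffold that links adhesion molecules to the terminal, had 4.89, 4.67 and 4.63 FPKM in SLCDS and 6.09, 5.75 and 4.52 FPKM in control. Control replicate 3 lay below every SLCDS library and the other 2 controls above, CASK did not pass (log2 fold change -0.16, limma, adjusted p = 0.492), and it fell without that library (-0.27, limma, adjusted p = 0.0111). ERC1, a RIM-binding scaffold also found outside neurons, had 3.66, 4.97 and 4.42 FPKM in SLCDS and 4.98, 5.11 and 2.22 FPKM in control. Its log2 fold change was 0.12 with control replicate 3 and -0.18 without it, and it passed in neither fit (limma, adjusted p = 0.850 and 0.193).

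Bassoon (BSN) and piccolo (PCLO), the giant scaffolds of the active zone, had 0.227 to 0.266 and 0.903 to 1.10 FPKM in SLCDS, and 0.118 to 0.300 and 0.421 to 0.994 FPKM in control. In both, control replicate 3 was the lowest library of all, while the other 2 controls lay above the SLCDS range for BSN and within it for PCLO. RIMS1, a RIM scaffold that recruits vesicles and calcium channels, had 11, 12 and 13 fragments in SLCDS and 8, 7 and 8 in control, which at these numbers was not called with no filter (limma, adjusted p = 0.528). RIMS2 had 0.131 to 0.217 FPKM in SLCDS and 0.0921 to 0.144 FPKM in control, with overlap.

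On the postsynaptic side, HOMER1, an adaptor between metabotropic glutamate receptors and SHANK proteins, had 4.94, 4.51 and 4.35 FPKM in SLCDS, against 2.88, 3.69 and 2.64 FPKM in control. The groups did not overlap. HOMER1 lay just outside the threshold (log2 fold change 0.47, SE 0.11; limma, adjusted p = 0.0570), passed on fragments (0.58, voom and limma, adjusted p = 0.0453) and rose without control replicate 3 (0.39, limma, adjusted p = 0.0107). In all it passed in 6 of 20 other settings. HOMER2 had 2.12, 2.03 and 1.94 FPKM in SLCDS and 2.08, 2.11 and 1.02 FPKM in control, so only control replicate 3 stood off, and it did not pass (limma, adjusted p = 0.653). HOMER3, the homer of many non-neuronal cells, had 24.3, 22.6 and 23.6 FPKM in SLCDS and 18.4, 20.9 and 27.6 FPKM in control. Control replicate 3 was here the highest library, HOMER3 did not pass (limma, adjusted p = 0.787), and without that library it rose (log2 fold change 0.25, limma, adjusted p = 0.0117).

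DLG4, which encodes PSD-95, the core scaffold of excitatory synapses, had 18.8, 19.1 and 19.1 FPKM in SLCDS and 19.2, 20.3 and 19.2 FPKM in control. The ranges lay narrowly apart, with 19.14 FPKM the highest value in SLCDS and 19.24 FPKM the lowest in control. The log2 fold change was -0.04 (95% interval -0.19 to 0.11), and no setting called DLG4. DLG4 overlaps ACADVL in RefSeq, at 237 ± 1.97 FPKM in SLCDS, against 252 ± 31.5 FPKM in control (SD, n = 3 each). GPHN, which encodes gephyrin, the scaffold of inhibitory synapses, had 2.44, 2.35 and 2.42 FPKM in SLCDS and 2.58, 2.89 and 2.73 FPKM in control. All control values lay above all SLCDS values, and the difference did not pass (log2 fold change -0.13; 95% interval -0.30 to 0.04; limma, adjusted p = 0.401).

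The SHANK genes encode the deep layer of the postsynaptic scaffold. SHANK3 was the only one above 1 FPKM, at 2.51, 2.70 and 2.73 FPKM in SLCDS, against 2.60, 2.16 and 2.14 FPKM in control, and did not pass (limma, adjusted p = 0.437). SHANK1 had 51, 60 and 54 fragments in SLCDS and 48, 23 and 27 in control, with group means of 0.339 ± 0.0326 and 0.206 ± 0.0869 FPKM (SD, n = 3 each). Its groups did not overlap, and it did not pass on fragments (log2 fold change 0.77, voom and limma, adjusted p = 0.177). SHANK2 had at most 2 fragments in any library. DLG2, the PSD-93 gene, had 0.0997 to 0.123 FPKM in SLCDS and 0.0711 to 0.119 FPKM in control.

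Counted by ranges alone, 11 of the 32 genes had every SLCDS library above every control library and 3 had every SLCDS library below, where 14.4% and 10.8% of all listed symbols did so. Among the 20 tested genes these counts were 7 and 3, where 15.5% and 13.6% of all tested genes did so. The 11 were SYT1, SYP, SYN1, SYNGR1, SV2A, RAB3B, SNAP25, RIMS1, UNC13A, SHANK1 and HOMER1, and the 3 were SYT11, DLG4 and GPHN. With 3 libraries a group this count says nothing of size, as the margins of SYP and DLG4 show.

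How far control replicate 3 lay from the other controls followed gene length. Gene lengths, as the FPKM imply them, ran from 1528 to 13184 nucleotides among the 20 tested genes. The difference of log2(FPKM + 1) between control replicate 3 and the mean of control replicates 1 and 2 was below 0 in 9 of 10 genes longer than 5000 nucleotides (median -0.28) and in 2 of 10 shorter ones (median 0.24). Spearman's rho between length and this difference was -0.85 over the 20 genes and -0.71 over 11498 tested genes, as a description across genes of the same libraries. This difference was highest for the short genes SYNGR2 (0.53), VAMP2 (0.48), HOMER3 (0.47) and SYP (0.35), and lowest for the long genes ERC1 (-0.91) and HOMER2 (-0.61). In a fit likewise added later, each library's trend with length and GC content was removed. Its lengths were those of the longest protein-coding transcripts in GENCODE release 29, not those the FPKM imply. There 6 of the 20 rose, RAB3B, SYT1, HOMER1, SNAP25, STX1A and SYP, and CASK and SYT11 fell. Over all 11474 genes of that fit 9.32% were called higher and 8.82% lower. All calls among the 20 were also made, in the same direction, without control replicate 3. RAB3B and SYP entered both fits only through SLCDS.

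**Figure D4:**
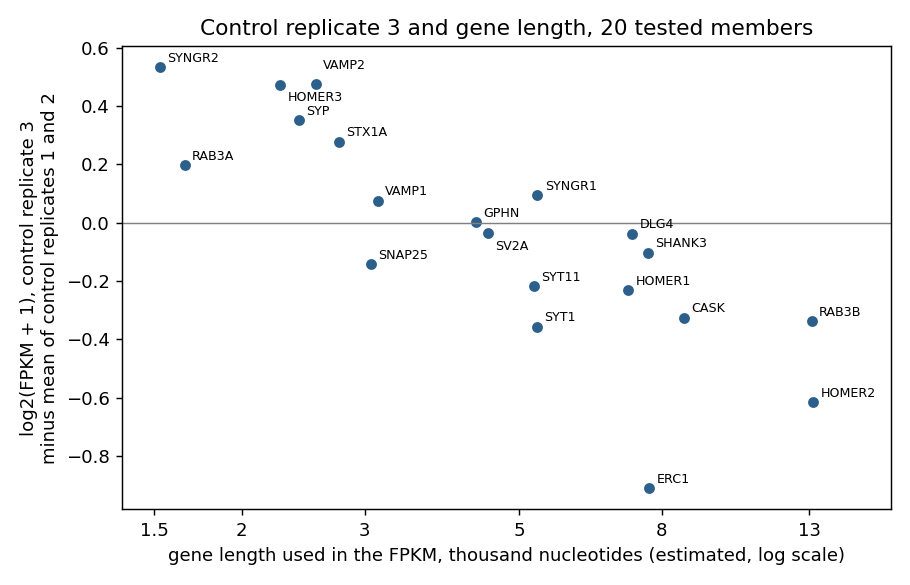
For each of the 20 tested genes, the difference of log2(FPKM + 1) between control replicate 3 and the mean of the other 2 controls (vertical) against the gene length implied by the FPKM, in kb on a log axis. Short genes such as SYNGR2 (0.53) lie above 0 and long genes such as ERC1 (-0.91) below it.

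Around the 32, 128 further synaptic genes in 5 lists were read in the same fit. Of these 119 were listed and 74 tested, 3 rose and none fell, a share near the 4.28% higher and 1.82% lower of all tested genes. All 3 are other vesicle membrane proteins, a list of 31 genes of which 8 were tested. SYT12, a synaptotagmin, had 22.9, 21.2 and 24.0 FPKM in SLCDS, against 9.40, 10.7 and 14.0 FPKM in control (log2 fold change 0.95, limma, adjusted p = 0.00825). SYPL2, a relative of synaptophysin, averaged 4.46 ± 0.273 FPKM in SLCDS and 1.97 ± 0.411 FPKM in control (SD, n = 3 each; limma, adjusted p = 0.00532). SLC17A7, the vesicular glutamate transporter, averaged 1.98 ± 0.277 and 0.493 ± 0.0862 FPKM (limma, adjusted p = 0.00155) and passed the filter only through SLCDS. In all 3 every SLCDS library lay above every control library, where 15.5% of all tested genes did so. The 3 were named because this fit called them higher, so their ranges add nothing to the calls.

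In the other lists none of the tested genes passed: 0 of 18 SNARE partners and fusion factors, 0 of 16 endocytosis genes, 0 of 15 other active zone genes and 0 of 17 other postsynaptic genes. Without control replicate 3 the same fit called 2 higher and 0 lower, 1 and 1, 1 and 2, and 2 and 2 in these lists, in that order, and 3 higher and 2 lower among the 8 other vesicle membrane genes, against 16.1% higher and 11.7% lower of all tested genes. Values of their most abundant members follow. The SNARE recycling factor NAPA stood at 83.1 ± 1.22 and 84.2 ± 16.7 FPKM and VAMP3 at 47.9 ± 1.78 and 44.0 ± 3.88 FPKM in SLCDS and control. The dynamin DNM2 stood at 47.4 ± 0.854 and 49.6 ± 0.685 FPKM and the endophilin SH3GL1 at 40.8 ± 1.37 and 45.3 ± 8.95 FPKM. The liprin gene PPFIBP1 stood at 30.1 ± 1.10 and 32.4 ± 8.98 FPKM and the adaptor APBA2 at 29.2 ± 0.791 and 31.0 ± 0.812 FPKM. DLG5 stood at 24.1 ± 1.18 and 29.2 ± 4.91 FPKM, with 33.1, 30.9 and 23.7 FPKM in the 3 controls, and the kinase CAMK2D at 24.1 ± 0.812 and 24.5 ± 3.22 FPKM (SD, n = 3 each).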

How the data were processed

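RNA of 6 U251 libraries, extracted with TRIzol and prepared with a VAHTS kit per the labels' protocols, gave 1 file per library, in which the authors deposited linear FPKM. Not given in the sources used here were aligner, counting tool and annotation. Mouse builds (GRCm38, mm10) stand in the submitters' processing notes, although the gene symbols are human. Groups came from the sample titles. The 32 genes and the further lists were chosen with earlier results of these data known, so counts over them are descriptions. A further marker list is not reported here.

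Differences were tested on log2(FPKM + 1) with limma 3.58.1 (R 4.3.3), with a variance prior following the mean, 2-sided, over 11506 genes with at least 1 FPKM in 3 or more libraries, adjusted by Benjamini-Hochberg. The scale understates changes of low genes. Whole fragments were recovered from the FPKM steps as the smallest whole numbers within 0.001, searched up to 40000 in the lowest library; for all 32 genes the largest distance was 6.36e-06. The absolute scale came from 556 genes with 1 transcript in GENCODE release 29, of which 57.6% lay within 5% of the median. Intervals on fragments cover counting error only. All 32 genes are named; called genes, genes called without control replicate 3 and abundant genes have every library's value, and up to 4 called or the 2 most abundant genes of each further list are named. The limma step was tested on simulated data. Alternatives were other pseudocounts, filters, scalings, variance priors, array weights, a replicate block and each library left out; removal of length and GC trends (splines with 4 degrees of freedom) and voom on genes with a mean of at least 10 fragments were chosen after seeing the data. Tables and plots were made in Python 3.11.15 (pandas 2.3.3, numpy 2.4.6; scipy 1.17.1 for intervals; matplotlib 3.10.9 for plots).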

Additional observations from a re-analysis of the deposited data

How the results depend on the processing

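RAB3B and SYT1 rose with both other pseudocounts, with a mean FPKM of at least 1, and under size factors, quantile normalization and both other variance priors. Genes called higher over all tested genes numbered 492 in the main fit, 196 with a mean FPKM of at least 5, 1845 with array weights, 1069 with length and GC trends removed and 2038 with voom without control replicate 3; with 1 library left out they ran from 140 to 1842. Genes called lower numbered 209 in the main fit and 128, 1432, 1012 and 1893 in the same settings, 326 under quantile normalization, and 56 to 1340 with 1 library left out. Of the 32, the 2 called higher became 0 with a mean FPKM of at least 5, which leaves RAB3B out, 12 with array weights, 6 with trends removed, 4 with voom and 12 with voom without control replicate 3, and 0 to 12 with 1 library left out. The count lower, 0 in the main fit, became 2 with array weights, with trends removed and with voom without control replicate 3, and 0 to 2 with 1 library left out. With each library scaled to the same FPKM sum RAB3B alone passed. Among the further synaptic genes, the 3 higher became 7 with no filter, 1 with a mean FPKM of at least 5, 10 with array weights, 5 with trends removed, 5 with voom and 13 with voom without control replicate 3, and 1 to 9 with 1 library left out. The count lower there, 0 in the main fit, became 2 with no filter, 1 with size factors, 2 under quantile normalization, 11 with array weights, 6 with trends removed, 2 with voom and 18 with voom without control replicate 3, and 0 to 7 with 1 library left out. The median over the 32 genes was 0.18 with a pseudocount of 0.1, 0.16 with equal FPKM sums and 0.10 under quantile normalization, and 0.12 to 0.15 with 1 library left out. The cause of these shifts was not tested. The filter, prior, weight, block, trend and voom settings give no median, since it uses no filter or test. In settings that did not call them, SYNGR2, ERC1, HOMER2 and HOMER3 changed sign at least once. The count below 1 FPKM was within 1.5 times of 11 under both other limits.

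With the replicate number as a block, RAB3B was the 1 gene of the 32 called, SYT1 having an adjusted p of 0.0687 (limma), and 109 genes were lower over all tested genes. Whether the numbers pair the libraries is not stated in the labels. Deviations from the group means correlated at -0.33, 0.36 and 0.07 between same-numbered libraries, and SLCDS replicate 1 correlated best with control replicate 3 (0.36). Control replicates 1 and 2 gave nearly the same correlations with each SLCDS replicate, since control replicate 3 dominated the control deviations. These correlations therefore cannot tell whether the libraries are paired. Genes with few fragments, such as CPLX2, SYN2 and SHANK2, cannot show a fall or a small rise at this depth.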
